A study of Mus musculus with 5 samples.

Results

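The granins and the enzymes of prohormone processing were followed as 10 genes in sympathetic neurons of the E14.5 mouse embryo. The genes were the granins *Chga*, *Chgb*, *Scg2*, and *Scg3*, the prohormone convertases *Pcsk1* and *Pcsk2*, the convertase partners *Scg5* and *Pcsk1n*, the carboxypeptidase *Cpe*, and the amidating enzyme *Pam*. They were chosen by name from their known roles, with earlier results of these data known. All 10 were found among the 20224 genes of the count table and passed the filter on low counts. Each library held 100 cells from dissociated sympathetic ganglia, sorted for peripherin-driven eGFP (*Prph-eGFP*) and for tdTomato (*tdTomatoAi14*), which the Cre recombinase switches on. There were 2 control libraries (replicates 5 and 6; *Hif1a loxP/+; Isl1Cre*) and 3 *Hif1aCKO* libraries (replicates 3, 4, and 5; *Hif1a loxP/loxP; Isl1Cre*), all from non-diabetic pregnancies. Thus, sorted cells of both genotypes carried the *Isl1-Cre* knock-in, and the control cells could lose 1 *Hif1a* allele, although the series description also lists controls without Cre. *Isl1-Cre* acts in every cell that expresses *Isl1*, not in sympathetic neurons alone. Neither the litter nor the sequencing batch of a library was given, so the p-values measure the spread between these libraries.

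Granins are acidic, calcium-binding proteins that aggregate in the trans-Golgi network and help to form dense-core vesicles, the organelles in which neurons and chromaffin cells store peptides and catecholamines. Inside these vesicles the prohormone convertases cut precursor proteins at pairs of basic residues, carboxypeptidase E trims the basic residues that are left, and peptidylglycine alpha-amidating monooxygenase amidates the carboxyl terminus. In the sympathoadrenal lineage, chromogranin A and chromogranin B are classical markers of the secretory phenotype.

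A sequence that several of these genes share is the cAMP response element, a site bound by CREB family factors and long studied in granin promoters. It was searched for in RefSeq promoter windows of GRCm38, from 250 bases before to 50 bases after each transcript start, and 9 of the 10 genes had a window, *Cpe* being the exception. The full palindrome TGACGTCA occurred in 3 of these 9 genes (*Chgb*, *Scg2*, and *Pcsk1*) and in 549 of 27025 genes with a window (2.03%). The printed stretches show the element in capitals, 5′ to 3′ on the strand of the gene. *Chgb* and *Scg2* carry the same letters at almost the same distance from the RefSeq start. *Chga* is shown beside them because it holds the core TGACG, in capitals, but not the full palindrome.
*Chgb*, plus strand, chr2:132781560-132781587: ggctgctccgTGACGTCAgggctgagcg
*Scg2*, minus strand, chr1:79440077-79440104: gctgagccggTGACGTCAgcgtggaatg
*Pcsk1*, plus strand, chr13:75089769-75089796: caggtagatcTGACGTCAagagatggct
*Chga*, plus strand, chr12:102554887-102554911: ggcggtcctaTGACGtaatttcctg
The first base in capitals lay at position -72 from the RefSeq start in *Chgb*, -68 in *Scg2*, -78 in *Pcsk1*, and -44 in *Chga*. In GENCODE release M21, whose outermost starts of *Chgb* and *Scg2* lie upstream of the RefSeq starts, the stretches of these genes fall in the 5′ UTR of the first exon, whereas the *Pcsk1* and *Chga* stretches overlap no annotated exon or gene. The core TGACG, read on both strands and contained in the palindrome, was present in 7 of the 9 genes and in 23.0% of all genes. The hypoxia response element core, ACGTG or GCGTG on either strand, which can share bases with TGACG, was present in 6 of the 9 genes and in 46.7% of all genes. It was present in *Chga*, *Scg2*, *Scg3*, *Pcsk1*, *Scg5*, and *Pam*. A match of this kind is a description of the letters and does not show binding.

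The libraries were comparable in size, with 8254211 to 9700887 counts on genes and TMM factors from 0.974 to 1.03. Values are given as normalized counts, that is, counts scaled by library size and TMM factor to the mean library. The deleted gene *Hif1a* had 2086 and 1584 normalized counts in the controls and 2747, 1757, and 2135 in *Hif1aCKO*; only exon 2 is floxed and counts are summed over the gene, so these values do not read the deletion. Markers of sympathetic neurons were abundant in every library, with a sum over 12 genes from 81400 to 110500, and 5 of them were lower and 1 was higher in *Hif1aCKO* at an unadjusted p-value under 0.05. Over 12 markers of dividing cells the sum was 21710 and 19530 in the controls and 29200, 37570, and 27580 in *Hif1aCKO*, with 8 of 12 higher at an unadjusted p-value under 0.05. The 5 Schwann cell precursor markers in the table summed to between 30.6 and 55.2 in 4 libraries and to 1199 in *Hif1aCKO* replicate 3, of which *Fabp7* gave 993 and *Cdh19* gave 54.7, whereas *Cdh19* was at 0 in the other libraries. Sums for mesenchyme, endothelium, erythroid cells, and sensory neurons stayed at or below 53.9. Of the listed markers, the count table held only 4 of 8, 2 of 6, 1 of 8 (*Alas2*), and 4 of 6, in that order. The 3 motor neuron markers in the table summed to 668 and 895 in the controls and to between 298 and 538 in *Hif1aCKO*. Most of this sum was *Slc18a3*, with 611 and 839 in the controls and 285, 266, and 525 in *Hif1aCKO*. *Isl2* was at most 6.49, so the sum mainly reads 1 gene. The 9 genes of the dissociation response summed to between 1842 and 2756 in all libraries. *Xist* was high in control replicate 5 and *Hif1aCKO* replicate 3 (4139 and 4929), while no other library exceeded 2.92. The Cre driver gene *Isl1* had 12580 and 14020 in the controls and 8634, 7800, and 8722 in *Hif1aCKO*. Its log2 fold change was -0.67 (SE 0.10, adjusted p = 0.45 in edgeR and 0.00021 in DESeq2), and the cause of this difference was not tested. *Prph*, whose reporter was used in the sort, had 4483 and 5966 in the controls and 6541, 5927, and 4970 in *Hif1aCKO*.

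In these neurons, none of the 10 genes passed the thresholds for a difference between *Hif1aCKO* and control. *Chgb* showed the widest difference, 3.22-fold lower on average, but its 3 *Hif1aCKO* libraries ranged from close to the controls down to 1106 and 776 normalized counts. *Scg3* was lower by a small and even margin, and *Cpe* and *Pam* were higher, each with groups that did not overlap. The remaining 6 genes overlapped between genotypes. Calls required an adjusted p-value (Benjamini-Hochberg) under 0.05 in the quasi-likelihood test of edgeR, together with a log2 fold change beyond 0.3 in either direction and at least 50 normalized counts on average. *Pcsk1*, with a mean of 11.6 normalized counts, lay below this last threshold and could not be called. Over all 15032 genes tested, 0 (0%) were called, so a count of 0 among the 10 does not set them apart. Of the 10, 2 had an unadjusted p-value under 0.05 (*Chgb* and *Scg3*, both lower), against 7.67% of all genes in either direction and 3.85% in the lower direction. The groups did not overlap for 4 of the 10, against 25.7% of all genes, and DESeq2, limma-voom, and the likelihood ratio test of edgeR called 0 of the 10, against 0.297%, 0%, and 0.266% of the genes they tested. Their median log2 fold change was 0.21, with 7 positive and 3 negative, and the median of all genes was 0.01. It came to 0.019 without control replicate 5 and to 0.062 without *Hif1aCKO* replicate 5, so it gives no direction for the group. In bulk samples, fewer cells of a type and less RNA per cell cannot be told apart.

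**Figure D1:**
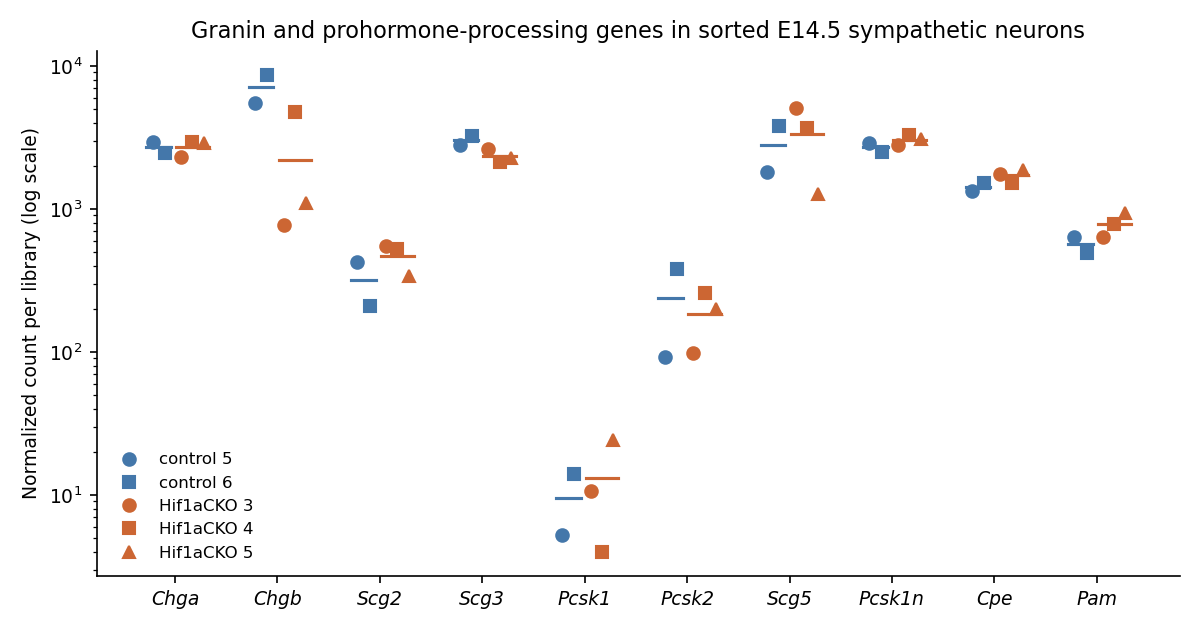
Normalized counts (log axis) of the 10 genes in each of 2 control (blue) and 3 *Hif1aCKO* (orange) libraries, with symbols for the replicates and bars for the group means. *Chgb* spans 776 to 8695 and *Scg5* 1268 to 5112, whereas the libraries of *Chga*, *Scg3*, *Pcsk1n*, and *Cpe* lie close together.

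Among the granins, *Chgb* (ENSMUSG00000027350; chromosome 2, 132781278 to 132795079), which encodes chromogranin B, had 5514 and 8695 normalized counts in control replicates 5 and 6. In *Hif1aCKO* it had 776, 4732, and 1106 in replicates 3, 4, and 5. All 3 *Hif1aCKO* values lay below the lower control, replicate 4 by little and replicates 3 and 5 by a wide margin. The means were 7105 ± 2250 (SD, n = 2) and 2205 ± 2195 (SD, n = 3), with a log2 fold change of -1.69 (SE 0.66, adjusted p = 0.62 in edgeR and 0.71 in DESeq2). Without *Hif1aCKO* replicate 4 the log2 fold change was -2.92, and without replicate 3, the library with Schwann cell precursor markers, it was -1.28. Within the *Hif1aCKO* group the highest library exceeded the lowest by 6.10-fold, and the controls differed by 1.58-fold. *Chgb* made up 29.9% and 37.3% of the counts of the 10 genes in the controls, and 4.66%, 23.8%, and 7.92% in *Hif1aCKO* (Wilson 95% intervals reach at most 0.678 percentage points to either side and cover counting error only).

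*Chga* (ENSMUSG00000021194; chromosome 12, 102554969 to 102565028), the gene of chromogranin A, showed no such pattern. Its normalized counts were 2923 and 2462 in the controls and 2317, 2915, and 2887 in *Hif1aCKO*. The groups overlapped, and the libraries low in *Chgb* were not low in *Chga* as a set, since replicate 3 was the lowest of the 5 and replicate 5 lay near the highest. The log2 fold change was 0.01 (SE 0.16, adjusted p = 0.996, edgeR), and its sign turned in 5 alternatives, so no direction can be given.

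*Scg3* (ENSMUSG00000032181; chromosome 9, 75643189 to 75684056) encodes secretogranin III, which binds chromogranin A and carboxypeptidase E at the vesicle membrane. It had 2815 and 3252 normalized counts in the controls and 2613, 2145, and 2271 in *Hif1aCKO*. Every *Hif1aCKO* library lay below both controls, and libraries of one genotype were close. With means of 3034 ± 309 (SD, n = 2) and 2343 ± 242 (SD, n = 3), the log2 fold change was -0.37 (SE 0.15), with a range of -0.48 to -0.27 over the fits that left out 1 library. The unadjusted p-value of 0.033, the smallest of the 10 genes, became 0.62 after adjustment (edgeR) and was 0.40 in DESeq2.

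*Scg2* (ENSMUSG00000050711; chromosome 1, 79434669 to 79440120), the precursor of the neuropeptide secretoneurin, had 428 and 208 normalized counts in the controls and 549, 528, and 339 in *Hif1aCKO*. The lowest *Hif1aCKO* value lay between the controls, and the log2 fold change of 0.57 (SE 0.35, adjusted p = 0.73, edgeR) ranged from 0.13 without control replicate 6 to 1.18 without control replicate 5 when each library was left out. *Scg2* thus had a positive estimate and *Chgb* a negative one. Both windows hold the palindrome, whose part in these values was not tested.

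The convertase genes were the least abundant. *Pcsk2* (ENSMUSG00000027419; chromosome 2, 143546156 to 143816285) encodes prohormone convertase 2. It had 92.7 and 380 normalized counts in the controls, and the *Hif1aCKO* values of 97.6, 260, and 199 all fell between them. A log2 fold change of -0.35 (SE 0.59, adjusted p = 0.93, edgeR) became 0.99 without control replicate 6 and -0.05 without *Hif1aCKO* replicate 3. *Pcsk1* (ENSMUSG00000021587; chromosome 13, 75089826 to 75134861), the gene of prohormone convertase 1/3, was near the limit of detection, with 5 and 15 counts in the controls and 10, 4, and 25 in *Hif1aCKO*. The exact Poisson 95% interval, which covers counting error only, was 1.09 to 10.2 counts for the lowest library and 16.2 to 36.9 for the highest. The log2 fold change of 0.44 had an SE of 1.12 and turned to -0.10 without control replicate 5 and to -0.38 without *Hif1aCKO* replicate 5. The intervals of the lowest and the highest library, both *Hif1aCKO*, did not overlap, so libraries of 1 genotype differed by more than counting error.

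The partners of the convertases were much more abundant than the convertases. *Scg5* (ENSMUSG00000023236; chromosome 2, 113776362 to 113829121) encodes 7B2, the chaperone that prohormone convertase 2 needs for its maturation. Its normalized counts were 1820 and 3790 in the controls and 5112, 3676, and 1268 in *Hif1aCKO*. Both the highest and the lowest of the 5 libraries were *Hif1aCKO* libraries, 4.03-fold apart. The log2 fold change was 0.26 (SE 0.52, adjusted p = 0.95, edgeR), and it was -0.18 without control replicate 5 and also without *Hif1aCKO* replicate 3. *Hif1aCKO* replicate 3, the lowest library for *Chgb*, was the highest for *Scg5*, and replicate 5 was low for both. *Pcsk1n* (ENSMUSG00000039278; chromosome X, 7919822 to 7924410), the gene of proSAAS, an inhibitor of prohormone convertase 1/3, was even across the libraries. It had 2894 and 2517 normalized counts in the controls and 2787, 3272, and 3084 in *Hif1aCKO*, with a log2 fold change of 0.17 (SE 0.14, adjusted p = 0.80, edgeR).

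Each convertase was also set against its partner within a library, which removes the scaling of the library. There were between 6.39 (*Hif1aCKO* replicate 5) and 52.4 (*Hif1aCKO* replicate 3) *Scg5* counts for each *Pcsk2* count, and 19.6 and 9.97 in the controls. The log2 ratio of *Pcsk2* to *Scg5* averaged -3.81 in control (SD 0.69, n = 2) and -4.07 in *Hif1aCKO* (SD 1.53, n = 3), and the difference of -0.26 had an exact two-sided permutation p of 1.0, where 0.1 is the smallest p that 2 libraries against 3 allow. The log2 ratio of *Pcsk1* to *Pcsk1n* averaged -8.31 (SD 1.14) and -8.23 (SD 1.36), a difference of 0.08 with an exact permutation p of 1.0, and it rests on 4 to 25 *Pcsk1* counts per library. The first difference turned positive without control replicate 6 (0.22) or *Hif1aCKO* replicate 3 (0.56), and the second turned negative without control replicate 5 (-0.73), *Hif1aCKO* replicate 3 (-0.023), or *Hif1aCKO* replicate 5 (-0.54).

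Of the trimming and amidating enzymes, *Pam* (ENSMUSG00000026335; chromosome 1, 97795114 to 98095646) had 637 and 491 normalized counts in the controls and 639, 789, and 933 in *Hif1aCKO*. The groups were separated only by the gap between 637 in control replicate 5 and 639 in *Hif1aCKO* replicate 3. With means of 564 ± 104 (SD, n = 2) and 787 ± 147 (SD, n = 3), the log2 fold change was 0.48 (SE 0.22, adjusted p = 0.67, edgeR; 0.30 to 0.68 when each library was left out). *Cpe* (ENSMUSG00000037852; chromosome 8, 64592542 to 64693054), which encodes carboxypeptidase E, had 1341 and 1509 normalized counts in the controls and 1765, 1528, and 1864 in *Hif1aCKO*. Here too, the lowest *Hif1aCKO* library was just above the higher control, and the log2 fold change was 0.27 (SE 0.16, adjusted p = 0.71, edgeR). Neither difference was called, and higher values without overlap were found for 12.9% of all genes.

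**Figure D2:**
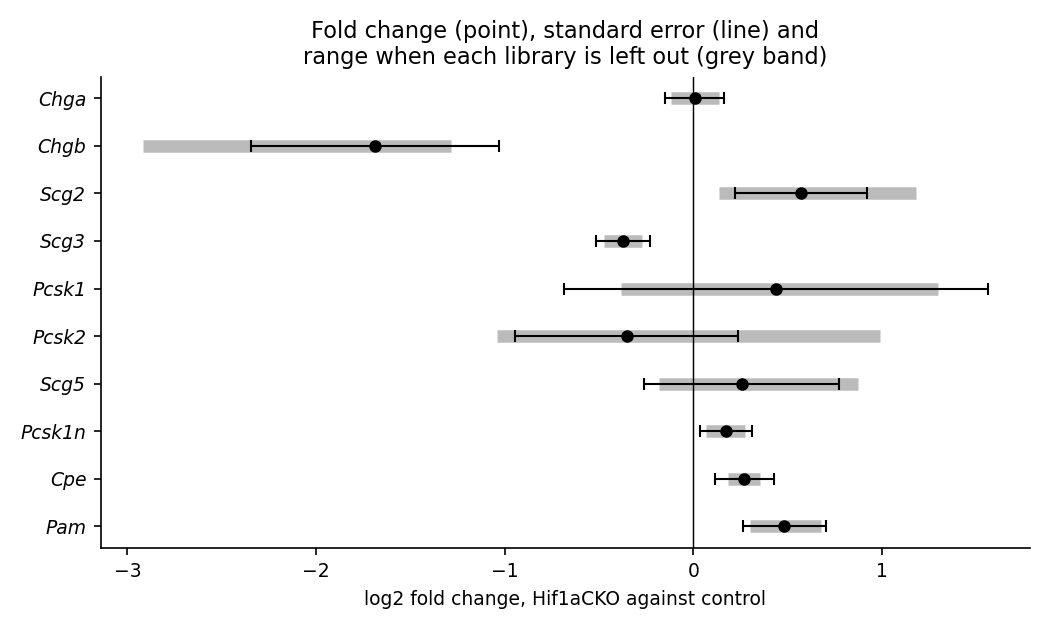
Log2 fold change of *Hif1aCKO* against control for the 10 genes from edgeR (points), with its standard error (lines) and the range of the estimate when each of the 5 libraries is left out (grey bands). The bands of *Chga*, *Pcsk1*, *Pcsk2*, and *Scg5* cross 0; that of *Chgb* runs from -2.92 to -1.28 and that of *Scg3* from -0.48 to -0.27.

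The 10 genes also differed in how evenly they were expressed between libraries of 1 genotype. For each gene the SD of the log2 normalized count was taken within genotypes, pooled over the 2 groups, and set against the 2087 genes with a mean of at least 1000 normalized counts, a limit chosen after the values were seen. The median SD of these genes was 0.16. *Chgb*, with an SD of 1.16, and *Scg5*, with 0.96, ranked 4 and 5 of 2087, after *Tsix*, *Xist*, and the pseudogene *Gm15459*. Among the 2052 protein-coding genes they ranked 1 and 2, ahead of the receptor tyrosine kinase gene *Ret* with 0.78. Without *Hif1aCKO* replicate 3 the SDs were 1.10 and 0.93 and the ranks were the same. The spread of *Chgb* rested on *Hif1aCKO* replicate 4, without which the SD was 0.42 and the rank among all 2087 genes was 71. That of *Scg5* was 0.58, with rank 13, without *Hif1aCKO* replicate 5. In contrast, *Chga* (0.18), *Scg3* (0.15), *Cpe* (0.14), and *Pcsk1n* (0.13), of similar abundance, lay near the median. *Pcsk2* (1.02), *Scg2* (0.53), and *Pam* (0.27) were below 1000 counts, where the spread of all genes is larger. The libraries with high *Xist* did not share a level of *Chgb* or *Scg5*: control replicate 5 and *Hif1aCKO* replicate 3 had 5514 and 776 for *Chgb*, and 1820 and 5112 for *Scg5*.

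**Figure D3:**
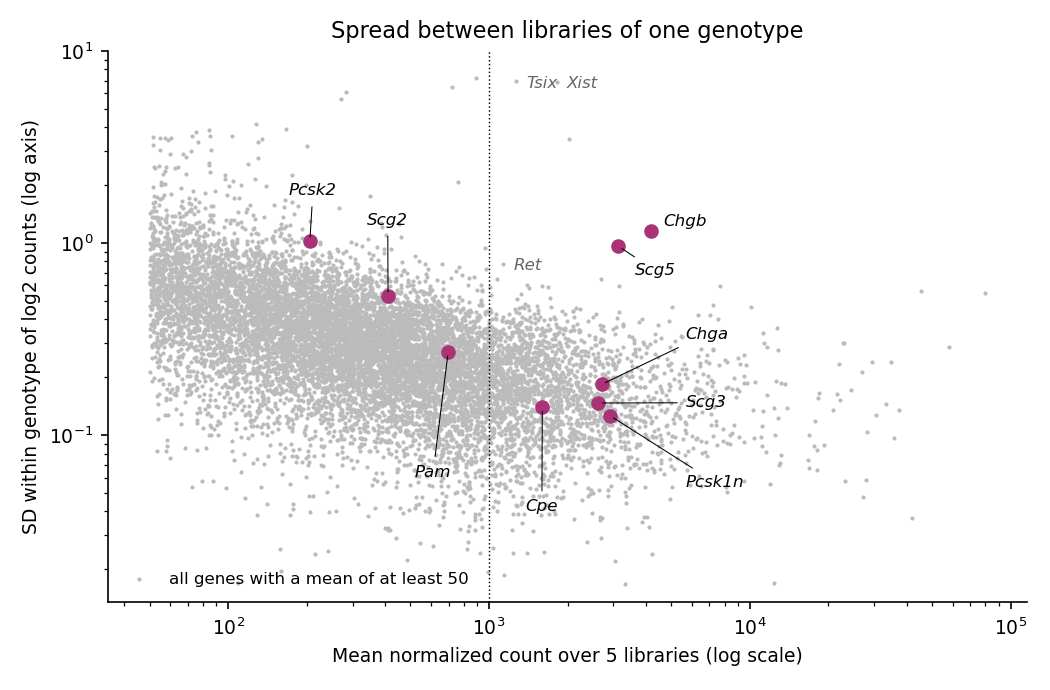
SD of log2 normalized counts within genotype (log axis) against the mean normalized count over 5 libraries (log axis), for all genes with a mean of at least 50 (grey) and 9 of the 10 genes (purple; *Pcsk1* is below 50). To the right of the dotted line at 1000 counts, *Chgb* at 1.16 and *Scg5* at 0.96 stand above nearly all other genes, and *Chga*, *Scg3*, *Cpe*, and *Pcsk1n* lie within the main cloud.

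To compare levels between genes, counts were divided by the length of the union of exons and scaled to 1000000 over all genes of a library. *Scg5* had the highest level per length, with a mean of 699 (range 278 to 1147 over the 5 libraries), followed by *Chgb* with 531 (99.7 to 1104), *Pcsk1n* with 463, *Chga* with 342, *Scg3* with 334, and *Cpe* with 214. *Scg2* (57.1), *Pam* (20.5), *Pcsk2* (9.08), and *Pcsk1* (0.72) followed. Hence, the convertase partners *Scg5* and *Pcsk1n* were at the upper end of this order and the convertases themselves at its lower end. Neighbours in the order were not always separated: *Scg5* exceeded *Chgb*, *Chgb* exceeded *Pcsk1n*, and *Chga* exceeded *Scg3* in only 3 of 5 libraries, and *Pam* exceeded *Pcsk2* in 4 of 5. The other neighbours kept their order in 5 of 5. Dividing by the longest transcript instead exchanged *Chga* with *Pcsk1n* and *Pam* with *Scg2*; the level of *Pam* became 45.1, since its exons span 11892 bases in union and 4102 in the longest transcript. Together the 10 genes took 0.234% of all counts in control (SD 0.036, n = 2) and 0.195% in *Hif1aCKO* (SD 0.036, n = 3), a difference of the order of the SD.

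**Figure D4:**
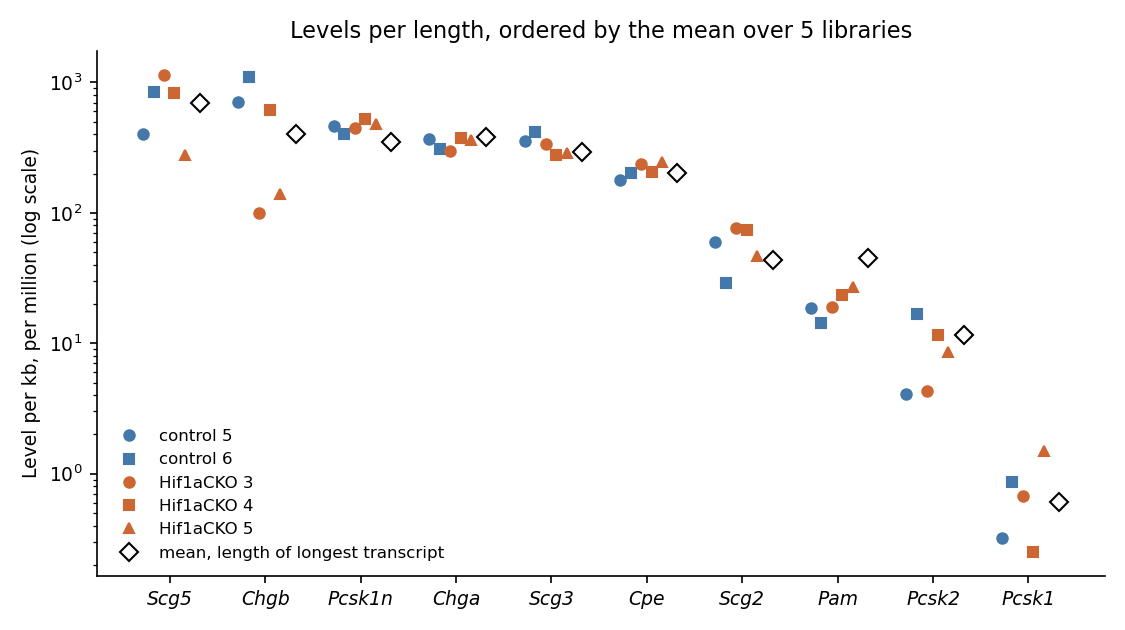
Level per kilobase of exon, scaled to 1000000 over all genes of a library (log axis), for the 10 genes in order of their mean. Filled symbols are the 5 libraries and open diamonds the mean computed with the longest transcript; *Scg5* leads with a mean of 699, *Pcsk1* is last with 0.72, and the diamond of *Pam* at 45.1 lies above its libraries.

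Genes with the nearest pattern over the 5 libraries were found by the Euclidean distance between log2 levels centred on the libraries, among 10841 genes with a mean of at least 50. For *Scg3*, the 5 nearest were *Gap43*, a growth cone protein gene (distance 0.054), *Fermt2*, *Ythdf2*, *Gm5308*, and *Uba3*. *Gap43* had 34990 and 40500 normalized counts in the controls and 33570, 27690, and 29200 in *Hif1aCKO*, a log2 fold change of -0.32 (SE 0.11, adjusted p = 0.62, edgeR). For *Chgb*, a choice made after its values were seen, the 5 nearest were *Ndufa4l2*, *Epas1*, *Hs3st5*, *Med18*, and *Ern1*, at distances of 1.09 to 1.27, where a distance also grows with the spread of the genes compared. *Ndufa4l2*, which encodes a mitochondrial protein known to be induced by hypoxia, had 522 and 531 normalized counts in the controls and 121, 673, and 105 in *Hif1aCKO*. *Epas1*, the gene of HIF-2 alpha, had 485 and 568 in the controls and 109, 338, and 168 in *Hif1aCKO*. Neither of these 2 genes was called (adjusted p = 0.82 and 0.60, edgeR). In *Hif1aCKO* replicate 4, *Epas1* lay below both controls, as *Chgb* did, and *Ndufa4l2* above both. *Hs3st5* had 79.2 and 163 in the controls and 15.0, 42.9, and 28.2 in *Hif1aCKO*. *Med18* had 194 and 277 against 27.9, 203, and 97.3, and *Ern1* had 69.8 and 83.5 against 23.6, 62.9, and 18.5. All 5 were picked for their closeness to *Chgb* over the same libraries, so a shared pattern follows from the choice.

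Chromaffin cells, which arise from the same lineage and are rich in chromogranin B, were checked with 6 marker genes. Their sum was 1857 and 1978 in the controls and 1012, 2156, and 1312 in *Hif1aCKO* replicates 3, 4, and 5, so the libraries low in *Chgb* also had the lowest sums. Not every marker followed this order. *Slc18a1*, the most abundant, had 736 in each control and 617, 795, and 816 in *Hif1aCKO*. *Cdkn1c* had 393 and 526 in the controls and 303, 821, and 414 in *Hif1aCKO*. In both genes *Hif1aCKO* replicate 3 was the lowest library, and *Hif1aCKO* replicate 5 was above control replicate 5. *Dgkk* had 672 and 507 in the controls and 41.8, 489, and 34.1 in *Hif1aCKO*, and was number 19 in the order of distance from *Chgb*. The low sum of *Hif1aCKO* replicate 5 against control replicate 5 rested on *Dgkk*. *Agtr1a* had 27.1 and 105 in the controls and 30.0, 47.9, and 37.0 in *Hif1aCKO*, with control replicate 5 the lowest library. *Pnmt*, the enzyme that makes adrenaline, was between 3.00 and 51.0 in all libraries, and *Penk* was at 0 in 3 libraries and at 52.9 in control replicate 6. None of the 5 chromaffin markers tested had an unadjusted p-value under 0.05, and their part in the values of *Chgb* was not tested.

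**Figure D5:**
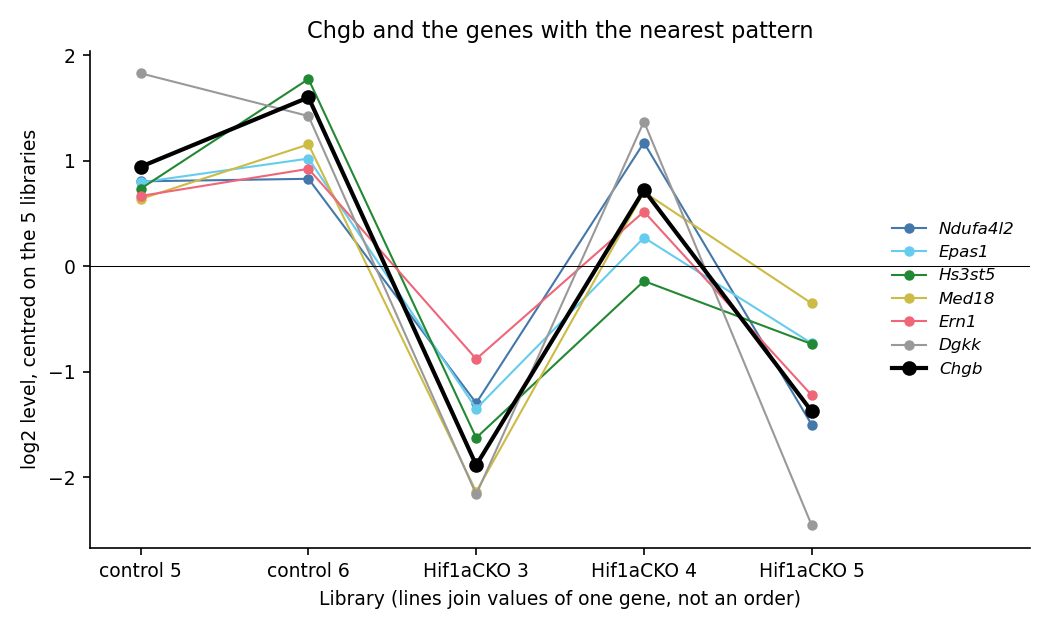
Log2 normalized counts, centred on the mean of the 5 libraries, of *Chgb* (black), its 5 nearest genes, and the chromaffin marker *Dgkk* (grey); lines join the values of 1 gene. *Chgb* and its neighbours are above their mean in both controls and below it in *Hif1aCKO* replicates 3 and 5, and all but *Hs3st5* are above it in replicate 4.

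The rest of the pathway was described with 8 lists of other genes, 98 of which were tested. None of the 98 was called; 39 had a positive and 59 a negative log2 fold change, with a median of -0.11. At an unadjusted p-value under 0.05, 3 were higher and 11 lower, against 3.83% and 3.85% of all genes, and the groups did not overlap for 31 (31.6%), against 25.7% of all genes. The 12 sympathetic neuron markers and the 12 dividing cell markers differed between the same groups, as given above, and their part in these counts was not tested; *Slc18a2* is in the sympathetic list too. The medians of 5 lists (granin-like proteins, other convertases, cofactor supply, cargo, and transcription factors) changed sign when 1 library or another was left out, so they give no direction.

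Of the 5 other granin-like or granule proteins tested (median -0.14), 0 had an unadjusted p-value under 0.05, and *Nucb2*, the nesfatin-1 precursor, had 329 and 525 normalized counts in the controls and 381, 380, and 292 in *Hif1aCKO*. *Vgf*, another granin family gene, had 2.08 and 0.93 in the controls and 10.7, 8.99, and 8.76 in *Hif1aCKO*; the groups did not overlap, and it was not tested because the filter on low counts removed it. The 5 other convertases (median 0.77, but -0.10 without *Hif1aCKO* replicate 4) also included 0 at that level. *Furin*, the convertase of the constitutive pathway, had 22.9 and 5.57 in the controls and 67.6, 26.0, and 52.5 in *Hif1aCKO*. Among 7 other peptide-trimming enzymes (median -0.27), *Cpm* was lower, with 177 and 123 in the controls and 35.4, 24.0, and 107 in *Hif1aCKO* (unadjusted p = 0.049, adjusted p = 0.65, edgeR), and *Aebp1* was higher at 29.2 counts or less. In the supply of copper and ascorbate to the amidating enzyme (6 genes, median -0.03), *Cyb561*, the vesicle cytochrome that regenerates ascorbate inside the vesicle, had 4128 and 5797 in the controls and 3663, 3310, and 3929 in *Hif1aCKO* (adjusted p = 0.62, edgeR). *Cyb561* was thus lower in all 3 *Hif1aCKO* libraries. It was the only 1 of the 6 genes without overlap, and 3 of the 6 had positive and 3 negative values. *Pam*, which uses the ascorbate, was higher in *Hif1aCKO*, but replicate 3 was nearly level with control replicate 5. Neither *Cyb561* nor *Pam* was called.

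Of 32 genes of dense-core vesicle biogenesis and acidification, 12 had positive and 20 negative values (median -0.20), with 0 higher and 4 lower at an unadjusted p-value under 0.05. *Vps41*, which acts in sorting to the regulated secretory pathway, had 1882 and 1953 normalized counts in the controls and 1419, 1121, and 974 in *Hif1aCKO* (log2 fold change -0.71, SE 0.18, adjusted p = 0.59 from edgeR and 0.056 from DESeq2). *Vps52* (-0.61), the vesicular monoamine transporter gene *Slc18a2* (-0.58), and *Atp6v0d1* (-0.42) were the other 3 by log2 fold change. In docking and release, 7 of 25 genes had positive and 18 negative values (median -0.18), with 1 higher and 5 lower at that level. *Syt4*, a synaptotagmin of dense-core vesicles, had 1702 and 3167 in the controls and 1702, 1110, and 924 in *Hif1aCKO*, where replicate 3 was level with control replicate 5 (adjusted p = 0.62, edgeR). The SNARE gene *Snap25* went the other way, with 8225 and 5368 in the controls and 10450, 10630, and 10360 in *Hif1aCKO* (adjusted p = 0.60 from edgeR and 0.065 from DESeq2).

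The cargo list held 11 tested neuropeptide precursors, with 7 positive and 4 negative values (median 0.29). *Cartpt*, the precursor of the CART peptides, had 7650 and 6243 normalized counts in the controls and 13440, 11310, and 17990 in *Hif1aCKO*. Its log2 fold change was 1.04 (SE 0.20, adjusted p = 0.56, edgeR), and it was the only gene of the 8 lists that DESeq2 and the likelihood ratio test called. *Npy*, the main sympathetic neuropeptide, had 2424 and 2589 in the controls and 1276, 2116, and 2143 in *Hif1aCKO* (adjusted p = 0.70, edgeR). Of 7 transcription factors known to act on granin genes (median -0.01), 0 had an unadjusted p-value under 0.05. Among the CREB family members that bind the cAMP response element, *Crem* had 430 and 428 in the controls and 458, 603, and 535 in *Hif1aCKO*, and *Atf1* had 124 and 116 against 187, 134, and 142. *Rest*, the repressor of neuronal and granin genes, was at most 4.99 in any library and was not tested.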

How the data were processed

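RNA of 100 sorted cells was sequenced for each of 5 libraries, which were grouped by the genotype in the labels. The authors trimmed reads, removed ribosomal sequences, mapped to GRCm38 (mm10), and counted reads per gene without multi-mapping reads; the submitters' processing notes name STAR (2.7.0c), cutadapt (1.18), and Bowtie (1.2.2). The deposited values are raw counts, without normalization. Names, positions, and lengths were taken from GENCODE release M21; the study used release M8. Counting used Rsubread with default settings, which ignore strand, and antisense genes share 6.16% of the exonic bases of *Pcsk1n* (*Eras*) and 3.29% and 1.25% of those of *Pcsk2* (*Pcsk2os1* and *Pcsk2os2*); on the same strand, *B230216N24Rik* shares 1.58% of *Pam*.

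Counts were tested with edgeR (4.0.16; TMM, filterByExpr, quasi-likelihood test) in R (4.3.3), with Benjamini-Hochberg adjustment over the 15032 genes kept. Alternatives were other normalizations and filters, DESeq2 (1.42.0), the likelihood ratio test, limma-voom (limma 3.58.1), a term for *Xist*, and leaving out each library. The biological coefficient of variation was 0.384. Tables and permutation tests used Python (3.11.15), pandas (2.3.3), and scipy (1.17.1). The tests were run on simulated data first. No 2 libraries were duplicates. The members and lists were chosen with earlier results of these data known. Named from each list were genes among the 4 with the smallest p-value or the most abundant, together with *Hif1a*, *Isl1*, *Prph*, and *Xist*. *Vgf*, *Rest*, and the neighbours of *Chgb* were added after their values were seen. So were the chromaffin genes *Cdkn1c*, *Dgkk*, *Agtr1a*, *Pnmt*, and *Penk*, and *Isl2* of the motor neuron list.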

Additional observations from a re-analysis of the deposited data

How the results depend on the processing

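No paired analysis was possible because the replicate numbers of the genotypes share only number 5, and nothing ties the samples of that number together. The number of the 10 genes called was 0 under every alternative run, including an adjusted p-value under 0.1 for the same test. Of 139 fold changes of these genes computed under alternatives, 129 kept their direction and 10 did not. *Chga* turned to -0.00059 without the filter and to -0.012 with a term for *Xist*. When each library was left out, the log2 fold changes ranged from -0.12 to 0.13 (*Chga*), -0.38 to 1.30 (*Pcsk1*), -1.04 to 0.99 (*Pcsk2*), and -0.18 to 0.88 (*Scg5*). The other 6 genes kept their sign under the alternatives run. The difference in the log2 ratio ranged from -0.96 to 0.56 for *Pcsk2* to *Scg5* and from -0.73 to 0.89 for *Pcsk1* to *Pcsk1n*. The median log2 fold change ranged from 0.019 to 0.22 for the 10 genes, -0.64 to 0.086 for other granin-like proteins, -0.10 to 0.94 for other convertases, -0.34 to -0.082 for trimming enzymes, -0.057 to 0.023 for cofactor supply, -0.24 to -0.17 for docking and release, -0.0012 to 0.75 for cargo, and -0.32 to 0.31 for transcription factors. DESeq2 and the likelihood ratio test each called 1 cargo gene, *Cartpt*, against 0. With the longest transcript, 4 genes changed place in the order of levels. *Pcsk1* has no value with at least 10 counts in every library. The cause of these changes was not tested. In an alternative chosen after seeing the data, the SD within genotypes ranged from 0.42 to 1.38 for *Chgb* and from 0.58 to 1.14 for *Scg5* when each library was left out. The spread between libraries limits the estimates of *Chgb*, *Scg5*, *Pcsk2*, and *Pcsk1*, and *Pcsk1* also rests on few counts.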
